A study of Mus musculus with 98 samples.

Results

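The comparison described here is that of cultured neurons given a virus that carries Acss2 (upACSS2) with neurons given the vector virus, both kept in PBS to day 21. Its members are the 6 libraries whose titles name upACSS2 or vector, PBS, and 21 days in vitro without stimulation, 3 per virus, of 98 samples in the series. All 6 came from primary embryonic hippocampal neurons of CD1 mice, which received a PhP.eB virus on day 5 for 48 hours, were washed on day 7 and then received PBS in place of hAD-tau, the tau material used in the other groups. The 6 libraries with hAD-tau at the same age (3 with upACSS2, 3 with vector) entered the same fit, and the PBS neurons of day 9 and the stimulated PBS neurons of day 21, each with 3 libraries per virus, serve for comparison. The treatment entry of the labels names hAD-tau for the upACSS2 libraries whose titles say PBS, on both days, and PBS for the vector libraries whose titles say hAD-tau. Groups follow the titles, which also match the column names of the deposited table. Acss2 can check which virus a library received, but not whether it received tau or PBS. If the treatment entry were right, virus and tau could not be told apart in this comparison. The strain, the age of the cells and the medium are given for the unstimulated cultures, and the labels used here name neither the promoter that drives the transgene nor the share of cells that took up the virus. Nothing says that the 3 libraries of a group came from separate cultures, so p-values measure the spread between these libraries, which may be technical.

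ACSS2 is an acetyl-CoA synthetase: it joins acetate to coenzyme A in the cytosol and the nucleus. Acetyl-CoA is the donor of acetyl groups for histone acetyltransferases and the building block of fatty acids and sterols. In hippocampal neurons nuclear ACSS2 is known for supplying acetyl-CoA at genes of neuronal activity and memory. The study raised ACSS2 in neurons and in mice to ask how gene expression then differs. By their titles, the PBS cultures of day 21 compare upACSS2 with vector in mature neuronal cultures without tau.

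Total counts ran from 19322013 to 31199403 in the 6 libraries, and 14639 of 25239 genes had enough reads to be tested. The spread within groups was large on day 21. The common biological coefficient of variation, the typical relative spread of a gene between libraries beyond counting error, was 0.249 in the vector group and 0.169 in the upACSS2 group, against 0.0366 to 0.0512 in the groups of day 9. The third vector library stood apart from the other 11 libraries of day 21 on the first principal component of the 2000 most variable genes (31.4% of the variance). It had the highest value among the 6 libraries for 3628 of the 14639 genes, where each of the others had it for 1283 to 2770. Reads of the ribosomal RNA gene Rn45s made up 11% of the second vector library and 7.93% of the first upACSS2 library, and 0.561% to 1.89% of the other 4. In the marker lists, microglial genes were near absent (11 of 14 tested, summed level 22.5 to 40.5 CPM, the counts of a gene scaled to library size). Of 14 endothelial and mural markers 8 had too few reads to test, and Cldn5 had no read in any of the 6 libraries. Astrocyte markers were abundant (summed level 7689 to 31810 CPM) beside those of neurons (4247 to 7130 CPM), so the libraries hold RNA of neurons, astrocytes and cells of the oligodendrocyte lineage together. In such bulk libraries fewer cells of a type and less RNA per cell cannot be told apart.

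Acss2, the gene carried by the virus, was far higher in each upACSS2 library. It lies on chromosome 2 of GRCm38 (mm10), 155517948 to 155585724, plus strand. The vector libraries held 59.6, 46.6 and 50.2 CPM, a mean of 52.2 ± 6.73 (SD, n = 3). The upACSS2 libraries held 2483, 2275 and 4339 CPM, a mean of 3032 ± 1140 (SD, n = 3), so every upACSS2 library lay far above every vector library. The third upACSS2 library was the highest. The means differed 58.1-fold, and the log2 fold change was 5.86 ± 0.28 (SE, adjusted p = 1.9e-06, edgeR's quasi-likelihood test). An exact two-sided permutation test of the 6 values gave p = 0.1, the smallest that 3 against 3 libraries allow. Reads of the transgene and of the cell's own Acss2 were counted under the same symbol and cannot be told apart. In the tau cultures of day 21 the log2 fold change was 6.21, in the stimulated PBS cultures 5.69 and in the PBS cultures of day 9 5.21.

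**Figure D1:**
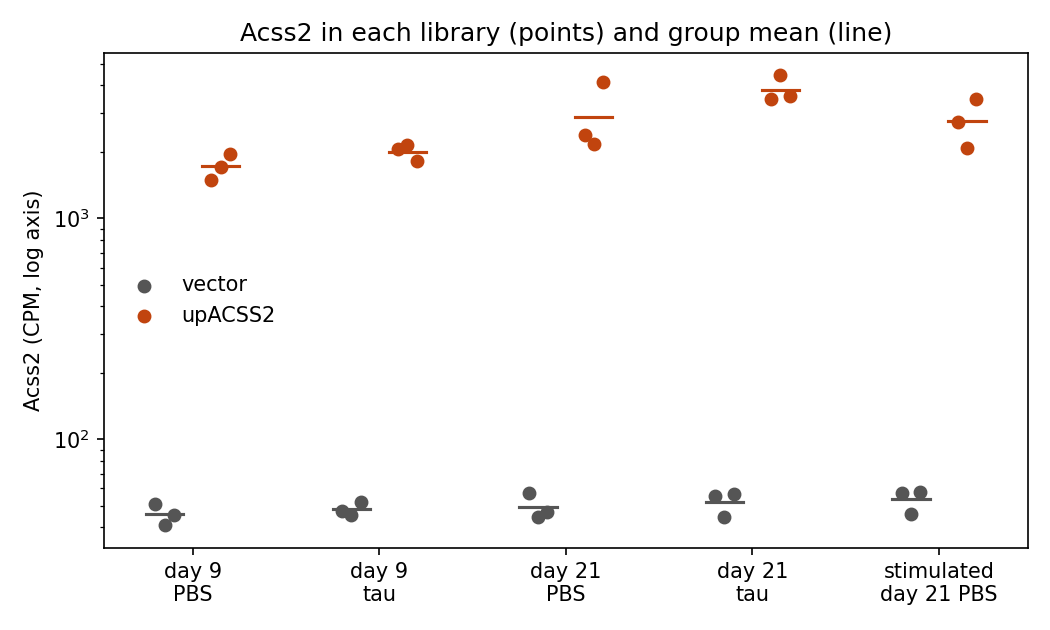
Acss2 in CPM (log axis) in each library, by culture day and treatment, for vector and upACSS2; the line is the group mean. Each upACSS2 library lies above each vector library in the 5 sets of neurons plotted, and the third upACSS2 library of day 21 in PBS is the highest of its group; unstimulated libraries are scaled here over 24 libraries, so values differ slightly from those of the 12-library fit.

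The other gene that rose past the threshold was Rxfp3, the receptor for the neuropeptide relaxin-3, which couples to inhibitory G proteins (chromosome 15, 11033717 to 11037991, minus strand, GRCm38). Its level was 35.0, 30.3 and 36.0 CPM with vector and 64.0, 55.8 and 62.1 CPM with upACSS2. The groups did not overlap, and the log2 fold change was 0.84 ± 0.10 (SE, adjusted p = 0.0154, edgeR). Acss2 and Rxfp3 were the only 2 of 14639 genes past an adjusted p of 0.05 in edgeR's test, a share of 0.0137%, and no gene fell past it. At an unadjusted p under 0.05 there were 949 genes higher (6.48%) and 1482 lower (10.1%). All 3 upACSS2 libraries lay above all 3 vector libraries for 1159 genes (7.92%) and below them for 1430 (9.77%). The Rxfp3 call was lost when any of 4 of the 6 PBS libraries was left out, namely the first or second vector library (adjusted p = 0.0633 and 0.068, edgeR) or the first or the third upACSS2 library (adjusted p = 0.099 and 0.142). DESeq2 on the same 12 libraries called 374 of 14352 genes, 129 higher and 245 lower. The number of edgeR's calls also depends strongly on which libraries lend their spread to the fit. With day 9 libraries in the fit, 24 in all, 1576 of 14863 genes passed (10.6%), 675 higher and 901 lower. The day 9 libraries vary far less than those of day 21. The common coefficient of variation was 0.135 over the 24 libraries and 0.189 over the 12 of day 21, tau included. In the compared groups it was 0.249 with vector and 0.169 with upACSS2. The tau groups, which lend their spread to the fit of 12, stood at 0.187 with vector and 0.124 with upACSS2. With only the 6 PBS libraries in the fit, the adjusted p of Rxfp3 was 0.405 (edgeR).

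**Figure D2:**
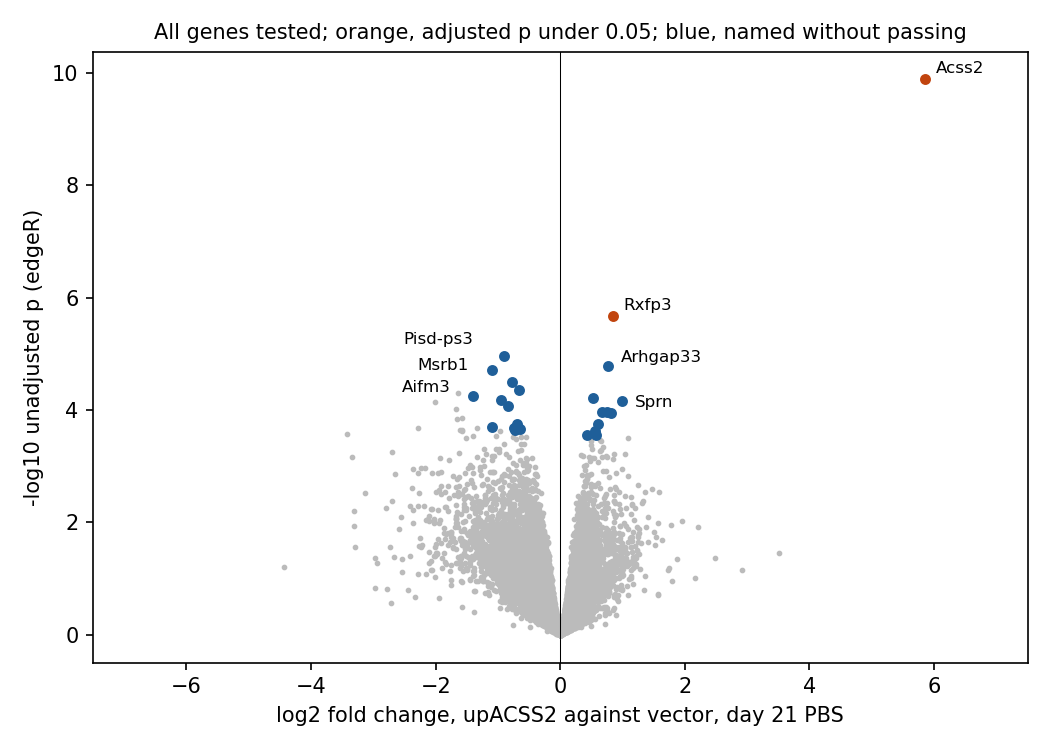
Log2 fold change of upACSS2 against vector on day 21 in PBS (horizontal) and −log10 of the unadjusted p of edgeR's test (vertical) for the 14639 genes tested. Acss2 and Rxfp3 are the 2 genes with an adjusted p under 0.05; the blue points are the genes with the smallest p among non-overlapping ones in either direction, none of which passed.

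The genes with the next smallest p did not pass in edgeR's fit of 12 libraries (adjusted p = 0.0543 to 0.107 among those named here). Their values are given as a description, though DESeq2 called each of those named. In each direction 12 genes with no overlap between the groups were taken by smallest p, Acss2 and Rxfp3 among them. Sprn encodes Shadoo, a membrane-anchored protein related to the prion protein. Its level was 90.3, 75.7 and 70.0 CPM with vector and 130.6, 154.2 and 183.4 CPM with upACSS2, a log2 fold change of 0.99 ± 0.17 (SE). Arhgap33, a GTPase-activating protein, stood at 74.8, 70.5 and 69.1 CPM with vector and 109, 125.6 and 130.9 CPM with upACSS2 (0.77 ± 0.11, SE). Cntnap4, a contactin-associated protein of the neurexin superfamily, stood at 70.6, 66.6 and 62.0 CPM against 97.5, 97.8 and 90.9 CPM (0.52 ± 0.09, SE). The lowest upACSS2 library exceeded the highest vector library in each of these genes. Log2 fold changes were 0.82 for Tmem158, 0.74 for Rgs2 (a regulator of G protein signalling), 0.68 for Phlda1, 0.61 for Nacad, 0.57 for Smg9 (nonsense-mediated decay), 0.56 for Cpeb2 (translation of polyadenylated mRNA) and 0.43 for Septin11 (cytoskeleton).

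On the lower side the smallest p belonged to Pisd-ps3, a pseudogene copy of Pisd, for which reads may be shared with the parent gene and the value is uncertain. It stood at 129.2, 125.2 and 117 CPM with vector and 65.8, 62.9 and 68.9 CPM with upACSS2 (−0.91 ± 0.13, SE, adjusted p = 0.0543, edgeR). Msrb1, a selenoprotein that reduces oxidised methionine, stood at 18.6, 20.9 and 23.2 CPM against 11.3, 8.54 and 9.62 CPM (−1.09 ± 0.16, SE, adjusted p = 0.0561, edgeR). The largest difference among the 12 lower genes was that of Aifm3, a mitochondrial protein related to apoptosis-inducing factor, at 10.9, 7.79 and 10.3 CPM against 3.46, 3.52 and 3.94 CPM (−1.41 ± 0.23, SE). Stxbp2, which binds syntaxins in vesicle fusion, stood at 15.6, 17.9 and 14.1 CPM against 7.26, 9.12 and 8.04 CPM (−0.96 ± 0.16, SE). Marchf2, a membrane-bound ubiquitin ligase, had the tightest upACSS2 group relative to its level, 38.7, 39.3 and 38.9 CPM, below 59.4, 57.0 and 68.3 CPM with vector. In all of them the 3 upACSS2 libraries lay together below the vector group. The others were Zfp54 (−1.10), Tspan17 (−0.84), Prr13 (−0.77), Fkbp14 (−0.74, a folding enzyme of the endoplasmic reticulum), Map4k2 (−0.72), Urod (−0.69, heme synthesis) and Rsph9 (−0.65, the radial spoke of motile cilia).

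**Figure D3:**
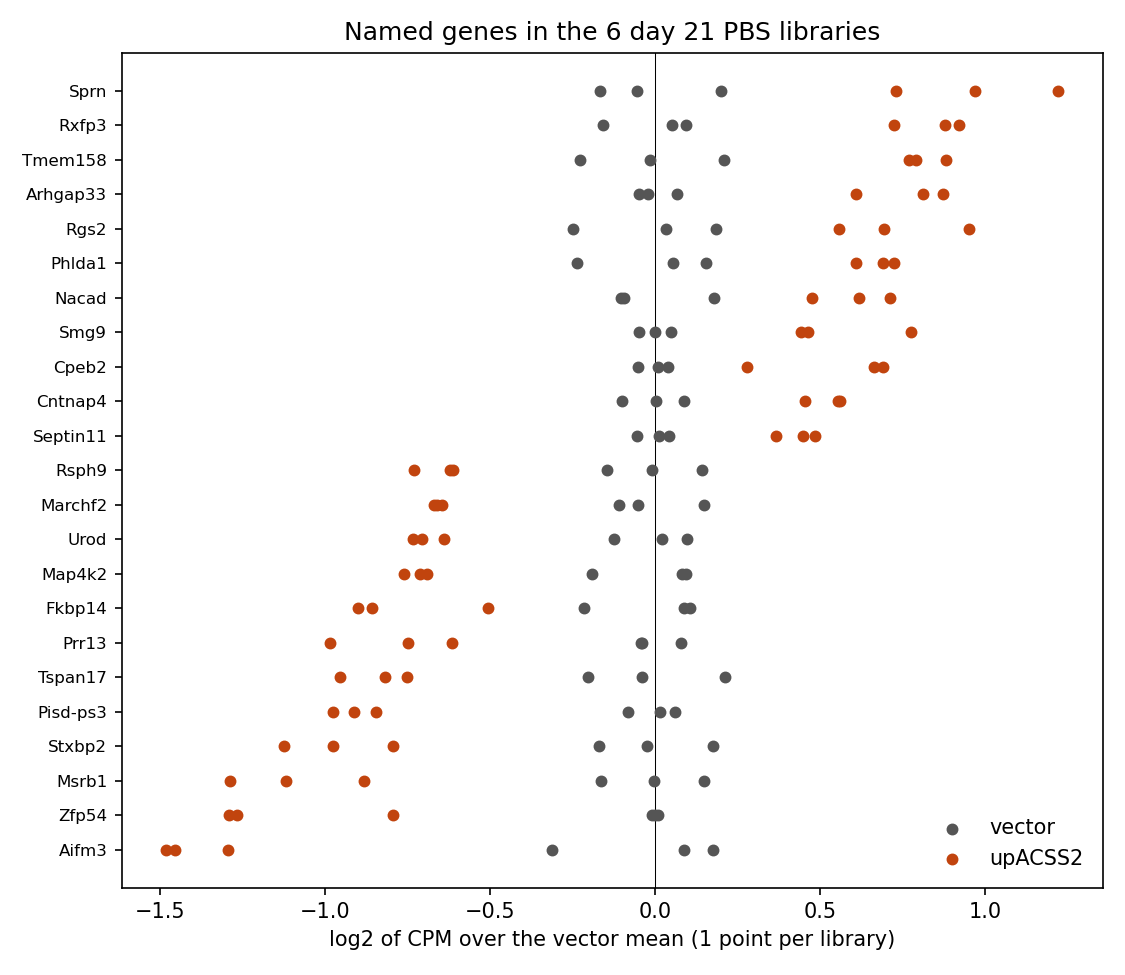
The 23 named genes other than Acss2 in the 6 PBS libraries of day 21, each as log2 of its CPM over the mean of the vector libraries. The upACSS2 points lie wholly to one side of the vector points for each gene because the genes were chosen that way; Sprn is the farthest to the right and Aifm3 the farthest to the left.

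The same 23 genes were then read in the other sets of neurons. The tau libraries of day 21 share the filter, scaling and estimate of spread with the fit that ranked the genes, though not its contrast. The stimulated and day 9 libraries had no part in that fit. Nothing in the labels used here says whether these sets came from separate cultures, so the sets may not be independent. Since the genes were chosen for a small p and separate groups in PBS on day 21, a smaller difference elsewhere follows in part from that choice. In the tau cultures of day 21, 23 of 23 had the same sign as in PBS, where 59.8% of all 14639 genes shared the sign, and 22 of 23 had the smaller difference of the 2. Past the threshold there were Rxfp3 (0.76, adjusted p = 0.0441, edgeR) and Stxbp2 (−1.15, adjusted p = 0.0445, edgeR), 2 of the 4 genes called in tau (0.0273% of those tested). In the stimulated PBS cultures 23 of 23 again had the sign seen here, where 60.2% of all genes did. Some differences in these counts were very small, as for Rgs2 in stimulated PBS (0.01 ± 0.15, SE) and Septin11 (0.05) and Urod (−0.05) in tau. In the stimulated cultures, genes also passed the threshold. Rxfp3 (0.90, adjusted p = 0.0125), Cntnap4 (0.75, adjusted p = 0.0276) and Pisd-ps3 (−0.76, adjusted p = 0.0276, edgeR in each case) were among the 31 genes called there (0.208%). On day 9 in PBS, 20 of 23 had the same sign, against 59.3% of all genes, and all 23 had a smaller difference than on day 21. There 11 of the 23 passed, 6 higher and 5 lower, where 10.2% of all genes tested passed in either direction. They were Rxfp3, Arhgap33, Sprn, Nacad, Cpeb2 and Smg9 on the higher side and Pisd-ps3, Aifm3, Stxbp2, Tspan17 and Fkbp14 on the lower side. Rgs2 (−0.22), Phlda1 (−0.15) and Marchf2 (0.05) had the opposite sign on day 9, none past the threshold.

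**Figure D4:**
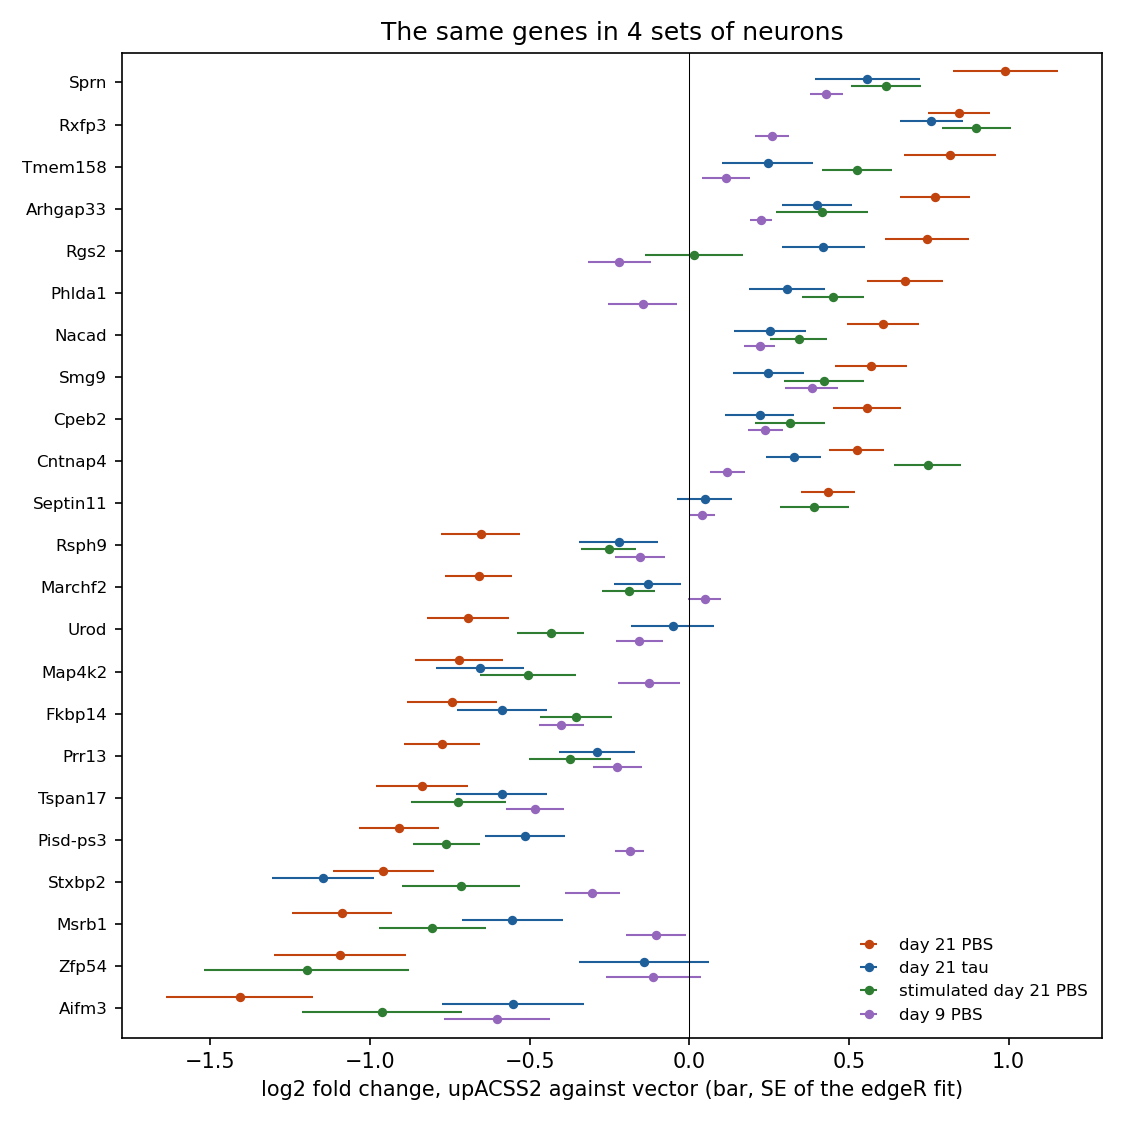
Log2 fold change of upACSS2 against vector, with the SE of edgeR's fit, for the 23 genes in 4 sets of neurons with separate libraries. In the day 21 sets all points of a gene lie on the same side of 0; the day 9 points lie nearest to 0 for most genes, with bars that are mostly shorter.

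No gene passed the test of whether the upACSS2 effect in PBS differed from that in tau (0 genes by edgeR, 1215 at an unadjusted p under 0.05; 3 genes by DESeq2 and 0 by limma voom). Among the 24 named genes the smallest adjusted p of that difference was 0.545 (edgeR). For Rxfp3 the effects were 0.84 and 0.76, a difference of 0.09 on the log2 scale. The difference between the effects on day 21 and day 9 passed for 6 of 14863 genes (0.0404%) in the fit of 24 libraries, which are taken up at the end.

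For the gene lists below, passing refers to an adjusted p under 0.05 in edgeR's fit of the 12 day 21 libraries, in which Acss2 was the only listed gene to pass. In the fit of 24 libraries, where 10.6% of all genes passed, the calls included 6 genes of sterol synthesis and 6 of the glutamate receptor list (all higher), 5 astrocyte and 5 lysosomal genes (all lower), and 2 actin genes higher and 6 lower. Counts at an unadjusted p under 0.05 are to be read against 6.48% of all genes higher and 10.1% lower, and counts without overlap against 7.92% and 9.77%. These shares themselves depend on the libraries. In both directions together 16.6% of all genes had an unadjusted p under 0.05. Without vector replicate 1, 2 and 3 in turn 23.2%, 17.7% and 10.8% did, and without upACSS2 replicate 1, 2 and 3 14.3%, 13.1% and 11.2% did. Of all 14639 genes, 3628 were highest and 3228 lowest in the third vector library. The second upACSS2 library was the highest for 2189 and the third for 2563. Counts of list members highest or lowest in 1 library are to be read against these.

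Among genes of acetyl-CoA supply, 22 of 24 were tested, and Acss2 was the only one to pass. Of all 22, 13 had a positive and 9 a negative difference, with a median of 0.11 on the log2 scale, where 7238 of all genes were positive, 7401 negative and the median was −0.003. At an unadjusted p under 0.05 there were 6 higher, Acss2 among them, and 2 lower. The 6 became 3 when any 1 of 4 libraries was left out (replicate 2 or replicate 3 of either virus). The mitochondrial synthetase Acss1 stood at 33.7, 41.9 and 88.2 CPM with vector and 47.0, 40.7 and 35.6 CPM with upACSS2, with overlapping groups. Acly, which makes cytosolic acetyl-CoA from citrate, stood at 217.4, 194.4 and 183.2 CPM against 227, 215.6 and 304.2 CPM (0.33), with overlapping groups. Acat2, which condenses acetyl-CoA units, stood at 55.0, 52.98 and 40.6 CPM against 66.7, 61.3 and 108 CPM (0.67, adjusted p = 0.19, edgeR). Pdk2, a kinase that switches off pyruvate dehydrogenase, stood at 85.1, 70.0 and 79.5 CPM against 46.9, 64.3 and 52.2 CPM (−0.52, adjusted p = 0.202, edgeR). Neither Acat2 nor Pdk2 overlapped between the groups, and neither passed.

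The enzymes that write and erase histone acetylation were close to level. None of 16 histone acetyltransferases passed, with a median of 0.05 and 1 member at an unadjusted p under 0.05 in each direction. Ep300 stood at 75.9, 64.2 and 74.0 CPM with vector and 90.3, 75.2 and 93.9 CPM with upACSS2 (0.28 ± 0.12, SE), with groups that overlapped. None of 18 deacetylases and sirtuins passed either (median −0.04, 2 lower at an unadjusted p under 0.05). Those 2 were Hdac10 (−0.47) and the mitochondrial Sirt4 (−0.49), both with few reads, the highest vector library at 8.52 and 8.47 CPM. With each PBS library left out in turn, medians ran from −0.14 to 0.01 for deacetylases and sirtuins and from 0.03 to 0.10 for acetyltransferases. Without the second upACSS2 library 5 of 18 deacetylases and sirtuins were lower at an unadjusted p under 0.05. In that fit 13.1% of all genes had one in either direction.

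Sterol synthesis and uptake is a route that draws on cytosolic acetyl-CoA, and its genes are switched on together by SREBP transcription factors when cell cholesterol is low. Of 23 listed genes 22 were tested, and none passed. All 22 had a positive difference (median 0.44), 9 of them at an unadjusted p under 0.05, a number that ran from 1 (without the third upACSS2 library) to 17 (without the second). Mvd, an enzyme of the mevalonate steps, stood at 31.9, 24.1 and 24.3 CPM with vector and 39.1, 31.1 and 71.8 CPM with upACSS2 (0.82 ± 0.29, SE, adjusted p = 0.226, edgeR), with overlapping groups. Mvk, which phosphorylates mevalonate, stood at 24.0, 21.3 and 24.4 CPM against 28.3, 25.4 and 40.6 CPM (0.44 ± 0.16, SE, adjusted p = 0.24, edgeR), with no overlap. In 21 of the 22 genes the highest of the 6 libraries was the third upACSS2 library. That library also held the most Acss2, and it was the highest for 18 of 23 genes of the glutamate receptor list and 15 of 20 of glycolysis and hypoxia. Whether sterol genes follow the level of Acss2 was not tested. The summed level of the list was 2607, 1880 and 2199 CPM with vector and 2704, 2292 and 4883 CPM with upACSS2, so the first and second upACSS2 libraries lay within or just above the vector range. Without the third upACSS2 library the median was 0.12, with 1 gene at an unadjusted p under 0.05 and 19 of 22 positive. In the tau cultures the median was 0.46. There the vector libraries summed to 3578, 2309 and 2812 CPM and the upACSS2 libraries to 4151, 4003 and 3508 CPM. Acss2 stood at 3672, 4656 and 3801 CPM in the same order of those upACSS2 libraries.

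Promoter sequence is shown for the sterol gene that held a motif known from these promoters. RefSeq promoters (GRCm38.p6) were at hand for 15 of the 22 genes, and the 250 bases before the start were searched on both strands for TCACCCCAC, part of the sterol regulatory element that SREBP proteins bind. Hmgcs1, which makes HMG-CoA from acetyl-CoA, was the only 1 of the 15 to hold it, and 163 of 32851 promoters did (0.496%). A match is a description of letters and not a measured binding site. The sequence runs 5′ to 3′ on the plus strand at chr13:119690101-119690350, with the motif in capitals.
Hmgcs1: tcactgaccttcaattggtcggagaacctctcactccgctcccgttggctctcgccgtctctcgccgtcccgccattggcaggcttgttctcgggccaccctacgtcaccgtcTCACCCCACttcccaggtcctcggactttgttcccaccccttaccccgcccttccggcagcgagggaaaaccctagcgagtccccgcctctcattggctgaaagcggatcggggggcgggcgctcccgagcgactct
Hmgcs1 stood at 775, 582.2 and 672.2 CPM with vector and 888.2, 709.6 and 1715 CPM with upACSS2, a log2 fold change of 0.71 that did not pass and that followed the third upACSS2 library like the rest of its list. Among 15 genes of fatty acid synthesis, which also use acetyl-CoA, the median was −0.14 and none passed. Without the third vector library the median was 0.08, with 10 of 15 positive, and in the tau cultures it was 0.32. Elovl6, which lengthens fatty acids, stood at 121.6, 105.9 and 77.6 CPM against 134.7, 130.4 and 166.2 CPM (0.50 ± 0.16, SE, adjusted p = 0.2, edgeR).

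Genes of neuronal activity and of the synapse leaned to the higher side without passing. Of 24 activity-induced genes 20 had a positive difference (median 0.36), and 4 reached an unadjusted p under 0.05. Dusp6, a phosphatase that restrains ERK signalling, stood at 38.0, 34.7 and 19.6 CPM with vector and 51.1, 51.6 and 69.2 CPM with upACSS2 (0.90 ± 0.24, SE, adjusted p = 0.168, edgeR). Egr4, an activity-induced transcription factor, stood at 22.2, 14.1 and 11.5 CPM against 24.0, 28.3 and 35.0 CPM (0.87 ± 0.31, SE). Gadd45b differed by 0.56 and Homer1, a postsynaptic scaffold protein, by 0.58. The groups did not overlap for Dusp6, Egr4 and Gadd45b but overlapped for Homer1. In 13 of the 24 genes the third vector library was the lowest of the 6, and in 13 the third upACSS2 library was the highest. Leaving out each PBS library in turn gave medians of 0.23 (without the third upACSS2 library) to 0.58 (without the first vector library).

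Of 23 genes of glutamate receptors and the postsynaptic scaffold, 23 had a positive difference (median 0.32), 6 with an unadjusted p under 0.05 and none past the threshold. Gria4, an AMPA receptor subunit, stood at 108.3, 124 and 105.5 CPM with vector and 156.7, 149.5 and 138.9 CPM with upACSS2 (0.40 ± 0.10, SE, adjusted p = 0.159, edgeR). Grin1, the obligate NMDA receptor subunit, stood at 249.3, 152.2 and 153.3 CPM against 242.7, 282.9 and 305 CPM, with the first vector library inside the upACSS2 range. The same holds for the list as a whole, whose summed level was 8585, 5731 and 5356 CPM with vector and 7141, 7278 and 9193 CPM with upACSS2. Its median was 0.49 without the first vector library, 0.24 without the third vector library and 0.19 without the third upACSS2 library, with 13, 1 and 2 members at an unadjusted p under 0.05, in fits in which 23.2%, 10.8% and 11.2% of all genes had one. Of 22 presynaptic genes 21 were positive (median 0.33), with none higher at an unadjusted p under 0.05; the 1 lower was the vesicular glutamate transporter Slc17a6 (−0.61). Of 22 genes of potassium, sodium and calcium channels 20 were positive (median 0.26) and 3 reached an unadjusted p under 0.05, among them Kcnd2 (0.37) and Kcna2 (0.38), which carry potassium currents. The medians of these lists ran from 0.19 to 0.56 and from 0.11 to 0.49 when each PBS library was left out in turn. Without the first vector library 15 presynaptic genes and 13 channel genes were higher at an unadjusted p under 0.05.

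Markers of neurons themselves had the same sign as these lists, and none passed. All 14 had a positive difference (median 0.22, from 0.12 without the third upACSS2 library to 0.39 without the first vector library), 3 at an unadjusted p under 0.05, and the summed level was 6347, 4566 and 4247 CPM with vector and 5774, 5727 and 7130 CPM with upACSS2. The heavy neurofilament Nefh stood at 52.3, 31.9 and 37.0 CPM against 63.5, 72.3 and 65.3 CPM (0.73 ± 0.17, SE, adjusted p = 0.146, edgeR). Nefl, the light neurofilament, differed by 0.74. What part the amount of neuronal RNA in a library has in the synaptic lists was not tested. Of 20 genes of GABAergic neurons 13 were positive (median 0.11), with 3 at an unadjusted p under 0.05. Gad2, which makes GABA, stood at 340.1, 299.6 and 259.8 CPM against 432.4, 366.3 and 372.6 CPM (0.38 ± 0.14, SE, adjusted p = 0.232, edgeR). Erbb4, a neuregulin receptor of interneurons, differed by 0.45.

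Glial lists went different ways. Of 14 astrocyte markers 13 had a negative difference (median −0.88), 6 at an unadjusted p under 0.05 and none past the threshold. Gfap, the astrocyte filament protein, stood at 4969, 2249 and 14380 CPM with vector and 3541, 1668 and 2439 CPM with upACSS2. The gap junction gene Gja1 stood at 95.2, 88.7 and 482.9 CPM against 92.8, 73.1 and 78.9 CPM. The third vector library was the highest of the 6 for 13 of the 14 markers, and its summed level of 31810 CPM stood above the 7689 to 12440 CPM of the other 5. Without it the median was −0.15, with 9 of 14 negative and 1 marker at an unadjusted p under 0.05. Without the second or the third upACSS2 library 1 marker also had an unadjusted p under 0.05. There the medians were still −0.68 and −0.79, with 13 of 14 negative in each. That marker list had a median of 0.44 in the tau cultures. Gjb6, another gap junction gene, had no overlap (5.90, 4.18 and 13.6 CPM against 2.39, 1.94 and 2.84 CPM, −1.73 ± 0.42, SE, adjusted p = 0.147, edgeR).

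Of 12 genes of the oligodendrocyte lineage 11 had a positive difference (median 0.46), 3 at an unadjusted p under 0.05 and 1 lower. Cspg4, which marks precursors, stood at 61.1, 44.6 and 42.6 CPM with vector and 71.8, 101.9 and 75.3 CPM with upACSS2 (0.75 ± 0.16, SE, adjusted p = 0.128, edgeR). Sox10, the transcription factor of the lineage, stood at 46.3, 54.0 and 38.4 CPM against 122.9, 83.6 and 77.7 CPM (1.04 ± 0.28, SE, adjusted p = 0.174, edgeR). Neither gene overlapped between the groups. The summed level of the list did overlap, at 1575, 2829 and 1822 CPM against 3728, 2172 and 2742 CPM, and without the first upACSS2 library the median was 0.07. Markers of other cell types were low throughout and none passed: 9 of 11 microglial markers (median −0.85), 4 of 6 endothelial and mural markers (−0.28), 12 of 14 genes of meningeal fibroblasts and matrix (−0.30) and 5 of 5 choroid plexus and ependymal genes (−1.22) had a negative difference. Without the third vector library the last of these medians was −0.245, with 3 of 5 negative and 0 at an unadjusted p under 0.05, and that of the meningeal list was −0.14. The microglial median ran from −1.59 (without the first upACSS2 library) to −0.61 (without the second vector library), and the endothelial and mural one from −0.65 (without the first upACSS2 library) to −0.14 (without the second).

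Proliferation genes showed how 1 library can carry a list. All 18 had a positive difference (median 0.96), 6 of them at an unadjusted p under 0.05. For 18 of 18 the second upACSS2 library was the highest, and its summed level was 839.5 CPM, where the other 5 libraries ranged from 217.5 to 339.8 CPM. Mki67, expressed in dividing cells, stood at 34.4, 19.0 and 38.8 CPM with vector and 29.9, 116.9 and 40.7 CPM with upACSS2. Without that library the median was 0.03, none of the 18 had an unadjusted p under 0.05, and 11 were positive and 7 negative.

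**Figure D5:**
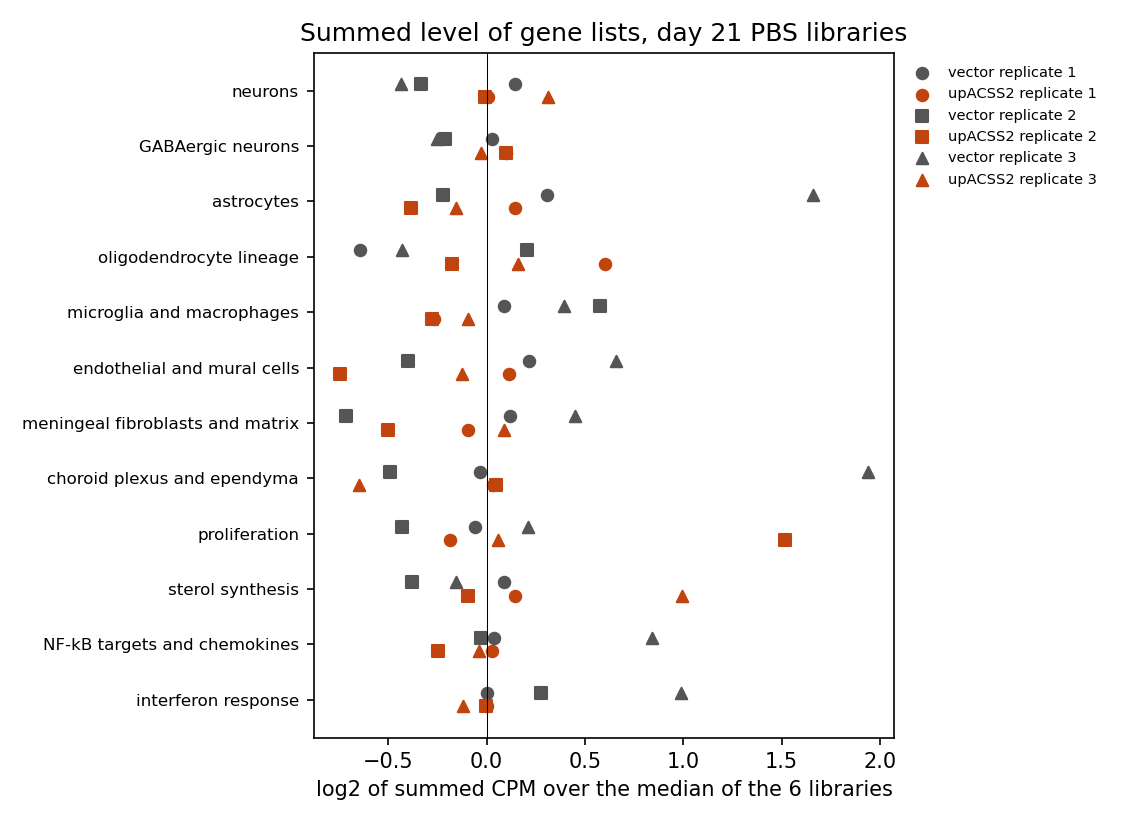
Summed CPM of 12 gene lists in each of the 6 PBS libraries of day 21, as log2 over the median of the 6; grey is vector, orange upACSS2, and the shape gives the replicate. The third vector library lies far right for astrocytes, choroid plexus and ependyma, NF-kB targets and interferon genes, the second upACSS2 library for proliferation and the third upACSS2 library for sterol synthesis.

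Inflammatory lists had mostly negative differences, none of which passed, and here too the third vector library was high. Of 15 NF-kB targets and chemokines 13 had a negative difference (median −0.40, 5 at an unadjusted p under 0.05), and 12 of 15 were highest in that library. The complement gene C3 stood at 3.54, 0.80 and 28.4 CPM with vector and 1.45, 0.95 and 0.89 CPM with upACSS2. Traf1, an adaptor of TNF receptors, stood at 2.93, 2.13 and 16.2 CPM against 2.01, 0.77 and 1.37 CPM. Without the third vector library the median was −0.17, with 1 member at an unadjusted p under 0.05, and in the tau cultures it was 0.34. Of 16 interferon response genes 15 were negative (median −0.61, −0.22 without that library and 0.08 in the tau cultures), and 5 had no overlap between the groups, where 9.77% of all genes lay wholly below. Ifi27, an interferon-induced gene, stood at 14.8, 12.2 and 20.1 CPM against 9.79, 8.58 and 6.73 CPM (−0.91 ± 0.28, SE, adjusted p = 0.197, edgeR), so that the first and second vector libraries also lay above each upACSS2 library. Ifit2 stood at 21.2, 22.8 and 33.4 CPM against 16.8, 20.2 and 16.2 CPM.

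Among genes of the lysosome, which degrades proteins and lipids, 5 had separate groups. Of 22 lysosome and autophagy genes 15 had a negative difference, 5 of them with no overlap (9.77% of all genes) and 5 at an unadjusted p under 0.05 (10.1% of all genes), and none passed. The median was −0.06, and −0.07 without the third vector library, in which 12 of the 22 were highest. It was −0.03 without the third upACSS2 library, and −0.15 without the first vector library, with 10 members lower at an unadjusted p under 0.05. Hexa, a subunit of the lysosomal hexosaminidase, stood at 62.6, 75.2 and 80.9 CPM with vector and 54.8, 58 and 49.0 CPM with upACSS2 (−0.44 ± 0.11, SE, adjusted p = 0.157, edgeR). The protease Ctsb stood at 505.1, 488.7 and 745 CPM against 431.2, 395.5 and 371.9 CPM (−0.54 ± 0.17, SE). Grn, the progranulin gene, stood at 78.8, 65.6 and 80.5 CPM against 52.6, 58.7 and 63.4 CPM (−0.37 ± 0.12, SE). In each of these genes every upACSS2 library lay below every vector library.

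Actin and SRF target genes split. Of 21 tested, 17 had a negative difference (median −0.56), with 8 lower and 2 higher at an unadjusted p under 0.05. The 2 higher were the cytoplasmic actins: Actb stood at 1455, 1374 and 1236 CPM with vector and 1824, 1775 and 1686 CPM with upACSS2 (0.38 ± 0.12, SE, adjusted p = 0.202, edgeR), and Actg1 differed by 0.36. On the lower side Lgals1, a galectin, stood at 92.1, 67.9 and 170.7 CPM against 52.7, 46.7 and 35.9 CPM (−1.29 ± 0.41, SE). In 15 of the 21 genes the third vector library was the highest, and without it the list's median was −0.21 with 1 lower and 2 higher at an unadjusted p under 0.05. In the tau cultures the median was 0.37.

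Housekeeping lists had small medians. The median was 0.01 for 22 respiratory chain genes, −0.04 for 22 cytosolic ribosomal protein genes and 0.08 for 19 genes of the unfolded protein and integrated stress responses, with 1, 0 and 1 members at an unadjusted p under 0.05. Atf3, a stress-induced transcription factor, was the stress gene with the smallest p and was lower, at 5.95, 9.64 and 13.98 CPM with vector and 5.98, 4.38 and 2.52 CPM with upACSS2 (−1.20 ± 0.34, SE, adjusted p = 0.18, edgeR). Genes of glycolysis and hypoxia had a median of 0.23 (18 of 20 positive, none at an unadjusted p under 0.05), which was −0.007 without the third upACSS2 library. Of 20 tau and microtubule genes 17 were positive (median 0.12, from 0.08 without the third vector library to 0.31 without the first, where 9 members had an unadjusted p under 0.05 in place of 2), with the tau kinase gene Gsk3b at 226.3, 203.3 and 192.2 CPM against 269.4, 229.4 and 297.8 CPM (0.36 ± 0.12, SE, adjusted p = 0.218, edgeR). Of 14 genes of p53 and cell death 10 were negative (median −0.24, 3 at an unadjusted p under 0.05), and 8 of the 14 were highest in the third vector library. Without it the median was −0.08 and 0 had an unadjusted p under 0.05.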

How the data were processed

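The members and the gene lists were chosen with earlier results of these data known. Raw counts by gene symbol were deposited as a table with a column for each library. The submitters' processing notes name STAR, featureCounts, HTSeq, DESeq2 and the build mm10; their versions and roles, the strand setting and the annotation are not given in the sources used here. Per the labels' protocols, 130 ng of RNA, extracted with Trizol and a column, went into each NEB library. Without a stated strand setting, reads of overlapping genes cannot be told apart.

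Counts of the 12 unstimulated day 21 libraries (4 groups of 3; total counts 17386121 to 31199403) went into the quasi-likelihood F test of edgeR 4.0.16 (R 4.3.3), two-sided. Scaling was by TMM, low genes were removed by filterByExpr with its default settings, and p-values were adjusted by Benjamini-Hochberg over the genes tested, with a threshold of 0.05. CPM is relative to the TMM-scaled library size, and SE is that of the fitted log2 fold change. The day 9 and stimulated comparisons used the 12 libraries of each set, and the difference between days a fit of 24 libraries. The edgeR step was run on simulated counts with known changes, drawn independently for each gene and library. Such counts hold no shift shared by many genes of 1 library, so the run does not check that case. Genes were named by rule: Acss2, genes past the threshold, then in each direction the 12 with the smallest p among genes whose groups did not overlap, whose mean log2 CPM reached 1 and whose symbol is no predicted or clone name; and in each of 28 lists up to 4 members with the smallest p; Acss1, Acly and Hmgcs1 were added after their values were seen. A few genes that met the rule are not reported here. Alternatives were RLE and upper-quartile scaling, DESeq2 1.42.0, limma 3.58.1 (voom with quality weights), other filters, other sets of libraries, the replicate number as a block and each library left out. Positions are from GENCODE M21 and the promoter from RefSeq, both on GRCm38, which is mm10.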

Additional observations from a re-analysis of the deposited data

Results flagged for a closer look

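For 6 genes the effect of upACSS2 in PBS differed between day 21 and day 9, by a test of the difference itself in the fit of 24 unstimulated libraries (edgeR, 6 of 14863 genes). Values here are log2 differences of the effect, day 21 minus day 9, unless a single set of neurons is named, and CPM is on the scale of that fit. Effects in a single set are those of its own fit of 12 libraries.

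Pdgfra, the receptor of oligodendrocyte precursors, had a difference of 2.77 ± 0.48 (SE, adjusted p = 0.0357, edgeR). On day 9 it stood at 13.5, 4.71 and 11.9 CPM with vector and 2.10, 1.98 and 1.89 CPM with upACSS2, so each upACSS2 library was lower. On day 21 it stood at 289.8, 375.7 and 264.7 CPM with vector and 422.5, 409.2 and 403.8 CPM with upACSS2, so each was higher, though the day 21 effect itself did not pass (0.40, adjusted p = 0.366, edgeR), and in the stimulated PBS neurons of day 21 it was −0.25 (adjusted p = 0.781).

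Polg, the mitochondrial DNA polymerase, had a difference of 0.69 ± 0.11 (SE, adjusted p = 0.0271, edgeR). It was lower in each upACSS2 library on day 9 (56.6, 52.0 and 57.0 CPM against 47.6, 47.5 and 47.7 CPM). On day 21 it was higher in each (69.7, 77.0 and 65.6 CPM against 91.8, 112.3 and 90.2 CPM). That day 21 effect did not pass (0.46, adjusted p = 0.128, edgeR). The Polg effect was 0.03 in the tau cultures of day 21 (adjusted p = 0.926) and 0.03 in stimulated PBS (adjusted p = 0.901, edgeR). Groups overlapped in both. Rxfp3 was higher on both days, with a difference of 0.59 ± 0.10 (SE, adjusted p = 0.0357, edgeR).

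The other 3 had lower values with upACSS2 on day 21 and not on day 9. None of these day 21 effects passed by itself (adjusted p = 0.0821 for Marchf2 and Ctxn2 and 0.128 for Nme5, edgeR). In the tau cultures of day 21 the effects were −0.13 for Marchf2, −0.48 for Ctxn2 and −0.34 for Nme5. In stimulated PBS they were −0.19, −1.37 and −0.36, and none passed in either set. Marchf2 had a difference of −0.70 ± 0.10 (SE, adjusted p = 0.0181), Ctxn2 of −1.65 ± 0.27 (adjusted p = 0.0271) and Nme5, a gene of ciliated cells, of −1.25 ± 0.22 (adjusted p = 0.0419, edgeR in each case). Ctxn2 has few reads: its day 21 level was 2.60, 3.96 and 2.49 CPM with vector and 0.86, 1.04 and 1.00 CPM with upACSS2. Nme5 also has few reads. On day 9 it was higher in each upACSS2 library (3.833, 4.705 and 4.364 CPM against 5.247, 5.212 and 5.134 CPM). That day 9 effect did not pass (0.29, adjusted p = 0.138, edgeR). On day 21 it was lower in each (5.005, 6.541 and 8.715 CPM against 3.4, 3.459 and 3.549 CPM). The fit takes 1 spread for both days, while day 9 libraries varied far less than day 21 libraries. None of the 6 passed in limma voom with quality weights (adjusted p = 0.0596 to 0.138), and each passed in 3 to 7 of the 12 fits without 1 PBS library. With the replicate number as a block, Pdgfra (adjusted p = 0.0647) and Nme5 (adjusted p = 0.0573, edgeR) no longer passed.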

How the results depend on the processing

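Acss2 passed and kept its direction in 16 of 16 alternative fits of the day 21 PBS comparison (10 settings and 6 without 1 PBS library; the fits without 1 tau library were run for counts alone), with log2 fold changes of 5.52 to 6.03. Rxfp3 kept its direction in 16 of 16 and passed in 10, with an adjusted p of 0.405 with only the 6 PBS libraries and 0.0505 in limma voom. The 22 other named genes kept their direction in all 16 fits. Each passed in at least 2 of them, DESeq2 (adjusted p = 1.1e-07 to 0.000957) and the fit of 24 libraries. Pisd-ps3 passed in 7 and Msrb1 in 5. The number of genes past the threshold, 2 in the main fit, was 1 with only the 6 PBS libraries, 1576 with all 24 unstimulated libraries, 4 with upper-quartile scaling, 374 with DESeq2 (129 higher, 245 lower), 1 in limma voom with quality weights, 5 with no filter on low counts and 5 with a minimum of 50 counts in 3 libraries; the larger set of libraries has the smaller estimate of spread, and the other causes were not tested. Leaving out each of the 12 libraries in turn gave 1 to 7. The second upACSS2 library of PBS, left out, gave 3 (Acss2, Rxfp3 and Cpeb2), and the third upACSS2 library of tau gave 7. Between the PBS vector and PBS upACSS2 groups of day 21, same-numbered libraries did not deviate together (correlations −0.321, 0.115 and −0.259). These few values cannot settle whether the numbers pair the samples. The second vector library held the most Rn45s of its group in both PBS (11%) and tau (4.1%). The fit with the replicate block called 3 genes (Acss2, Rxfp3 and Pisd-ps3), and 5 genes for the difference between days. The difference between PBS and tau effects gave 3 genes with DESeq2 and 0 with edgeR. The difference between days, 6 genes, gave 125 with DESeq2, 0 in limma voom and 0 to 148 when each PBS library was left out, 148 without the first and 14 without the second vector library of day 21 and 0 without any 1 of 5 day 9 libraries. Alternatives for this difference other than DESeq2 and the block, and the fits of lists without single libraries, were chosen after seeing the data. With 3 libraries a group the median SE was 0.176 on the log2 scale, and differences well above that size also failed to pass. Of 14639 genes tested, 555 had an absolute log2 fold change over 1 with an unadjusted p under 0.05 (edgeR), while 2 genes passed in all. Even Aifm3, at −1.41, did not pass (adjusted p = 0.0821, edgeR).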

Other observations

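The third vector library held 50.2 CPM of Foxj1, the master regulator of motile cilia, where the other 5 PBS libraries held 3.57 to 8.46 CPM. Its summed level of choroid plexus and ependymal markers was 74.3 CPM, against 12.35 to 20.01 CPM in the other 5. Ttr, the defining choroid plexus transcript, was too low to test in these libraries (at most 3.27 CPM). Hk2, a hexokinase, stood at 21.2 CPM in the third upACSS2 library and at 1.49 to 4.44 CPM in the other 5, and Slc16a3, a lactate exporter, at 12.9 CPM against 0.36 to 3.95 CPM. These values fall in single libraries.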
